A study of Canis lupus familiaris with 8 samples.

Results

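The miR-17-92 cluster and its paralogs are represented here by 6 microRNAs of the 454 canine miRNAs on the array: cfa-miR-92a, cfa-miR-92b, cfa-miR-25, cfa-miR-20a, cfa-miR-93 and cfa-miR-106a. They were taken by exact name from the scanner files and from the deposited value table. The data come from a canine mammary adenocarcinoma line, CMT-Stylo (Stylo), and from CMT-Star (Star), which was derived from Stylo under rising doses of doxorubicin, an anthracycline that intercalates into DNA, for several months until the cells resisted 100 nM. CSC are CD44+, CD24-/low and ALDH+ cells (ALDH is aldehyde dehydrogenase) that were collected by flow cytometry, a surface and enzyme profile used for stem-like tumour cells. The 4 groups were Star CSC and Star parent, both labelled as treated with doxorubicin, and Stylo CSC and Stylo parent, both labelled as not treated, with 2 samples each, hybridised to 1-colour Agilent miRNA arrays. The resistant line is 1 derivative of 1 parent line, so resistance and any other difference between the lines cannot be told apart. Nothing in the labels says that replicates were separate cultures or sorts, so p-values reflect the spread of these samples alone, and that spread may be technical.

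MiRNAs are short RNAs that pair through their seed, the bases near the 5′ end, with messenger RNAs and lower their translation and stability. In mammals the miR-17-92 transcript, known as oncomiR-1, yields several miRNAs at once. MYC and E2F factors drive it, and its members are known to dampen inhibitors of the cell cycle and apoptosis factors. The paralogous miR-106a-363 and miR-106b-25 clusters arose by duplication. The members fall into seed families: miR-92a, miR-92b and miR-25 share one seed, and miR-20a, miR-93 and miR-106a share the miR-17 seed. In the RefSeq annotation of the assembly UU_Cfam_GSD_1.0, which is not the build of the array, these genes were grouped by chromosome and not by distance. MIR20A and MIR92A-1 lie with MIR17, MIR18A, MIR19A and MIR19B-1 in a group of 6. MIR106A and MIR92A-2 lie in a second group of 6 with MIR363, MIR20B, MIR19B-2 and MIR18B. MIR93 and MIR25 lie with MIR106B in a group of 3 within MCM7, a gene for a DNA helicase subunit of the replication origin, and MIR92B lies apart from the others. Mature cfa-miR-92a can therefore come from 2 loci, which the array does not separate.

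The scanner files of both Stylo parent replicates held identical values and were counted as 1 sample, which left 7 arrays and n = 1 for Stylo parent. The array of Stylo CSC replicate 1 was alone on slide 2 and all others were on slide 1. Its correlation with each other array was 0.762 to 0.807 over the 46 tested miRNAs, against 0.935 to 0.998 among the rest. In the value table, the columns of Stylo CSC replicate 1 and Stylo parent replicate 2 departed from their scanner files (409 and 406 of 454 miRNAs followed them), and the other columns followed for all 454. The scanner software detected only 38 and 48 miRNAs in these 2 files, so most of those that followed were undetected there. The 2 columns hold 30 and 25 detected miRNAs. Each change is therefore given 3 times: over the 7 arrays, over the 6 arrays of slide 1, which leaves out Stylo CSC replicate 1, and from the value table with its 8 columns. On slide 1 both Stylo groups have 1 array each. They are assumed there to vary like the Star arrays, which alone give the spread, and for a miRNA at the floor in Star parent only the Star CSC pair does, beside limma's pooling over miRNAs. An array measured between 24 and 49 miRNAs well above background, as a miRNA is called here where over 50% of the spots of any of its probes carried the scanner's flag of that name. Of 7 epithelial miRNAs, among them miR-200c, 0 were well above background on any array, although the line is labelled as an adenocarcinoma. The lists of muscle (0 of 4), mesenchymal (0 of 5), endothelial (0 of 1) and liver miRNAs (0 of 1) gave no such signal either, and of 4 neural miRNAs only miR-138a did, in Stylo CSC.

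The members were dim, and they were not all detected. Cfa-miR-92a was well above background on 5 of 7 arrays, cfa-miR-93 on 5, cfa-miR-25 on 3 and cfa-miR-106a on 1, while cfa-miR-92b and cfa-miR-20a were so on 0. The scanner software's own total signal, which it sets to 0.1 where it detects nothing, was above that value on 7 arrays for cfa-miR-92a and cfa-miR-25, 6 for cfa-miR-93, 5 for cfa-miR-92b, 4 for cfa-miR-106a and 1 for cfa-miR-20a. Below, a scaled signal is the sum of a miRNA's probe signals divided by its array's 75th percentile over 22 probes that every array measured well above background, and the floor of the log2 values was a scaled signal of 0.0822. Only cfa-miR-92a, cfa-miR-25 and cfa-miR-93 were well above background on both arrays of a group (or on the 1 Stylo parent array) and entered the test with 43 other miRNAs. They passed that filter through the group in which they were bright.

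**Figure D1:**
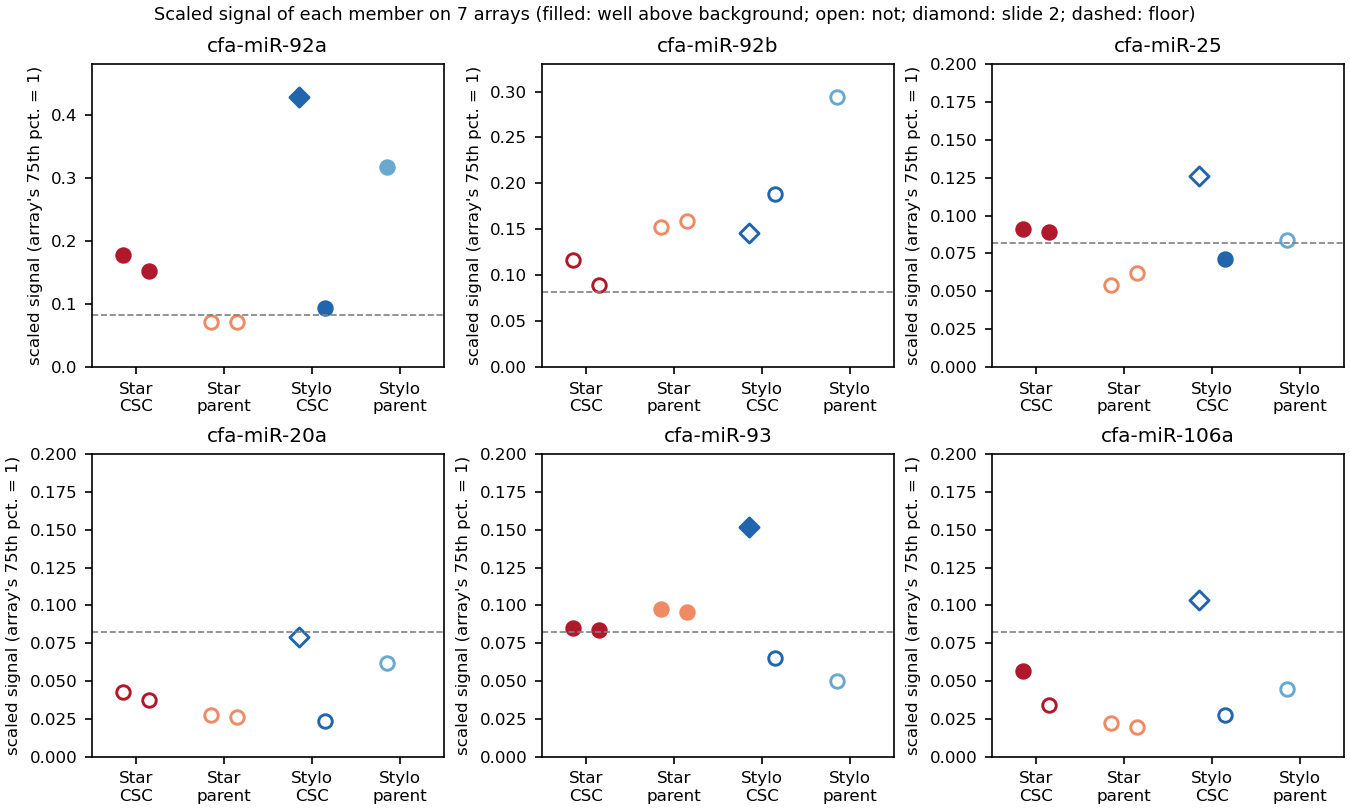
Scaled signal (y axis, linear, the array's 75th percentile set to 1) of the 6 members on each of 7 arrays by group (x axis), with filled points well above background, open points not, a diamond for the slide 2 array and a dashed line at the floor of 0.0822. Cfa-miR-92a spans 0.0707 to 0.429, while cfa-miR-20a stays below the floor on every array.

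Cfa-miR-92a, the miR-17-92 member that lies last in the transcript and is known for its action on endothelial and tumour cells, had the widest span of the members. Its scaled signal was 0.178 and 0.153 on the Star CSC arrays, against 0.0708 and 0.0707 on the Star parent arrays. It was 0.429 on the slide 2 array and 0.0943 on the slide 1 array of Stylo CSC, against 0.317 on the Stylo parent array. Both Star CSC arrays lay above both Star parent arrays, where the miRNA was not well above background, while the Stylo CSC arrays lay on either side of Stylo parent. The order of group means on the log2 scale was Stylo parent (−1.66, n = 1), Stylo CSC (−2.31 ± 1.55), Star CSC (−2.60 ± 0.16) and Star parent (−3.61, both arrays at the floor; SD, n = 2 each). No difference between neighbours in this order passed the test over the 7 arrays, and that of Star CSC and Star parent was larger than its standard error.

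Only part of this pattern stood in the signals of cfa-miR-92a before scaling. The brighter of its 2 probes gave 65.5 ± 5.04 and 50.7 ± 7.33 on the Star CSC arrays, against 18.3 ± 7.01 and 18.2 ± 4.20 on the Star parent arrays (mean ± SD over the spots of 1 array, in units of the processed signal). On the Stylo CSC arrays it gave 71.6 ± 11.8 and 23.0 ± 5.26, against 51.1 ± 8.53 on the Stylo parent array. The sorted Star samples thus stayed above the unsorted ones, and Stylo parent stayed between the sorted Stylo arrays. Star CSC did not stay below Stylo parent, as its replicate 1 gave 65.5, against 51.1. All 19 and 20 spots were well above background on the Star CSC arrays, against 7 and 5 of 20 on the Star parent arrays. The spread over spots is technical and says nothing of the spread between samples. The brighter probe was 2.76 to 4.46 times as bright as the other on the 7 arrays.

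**Figure D2:**
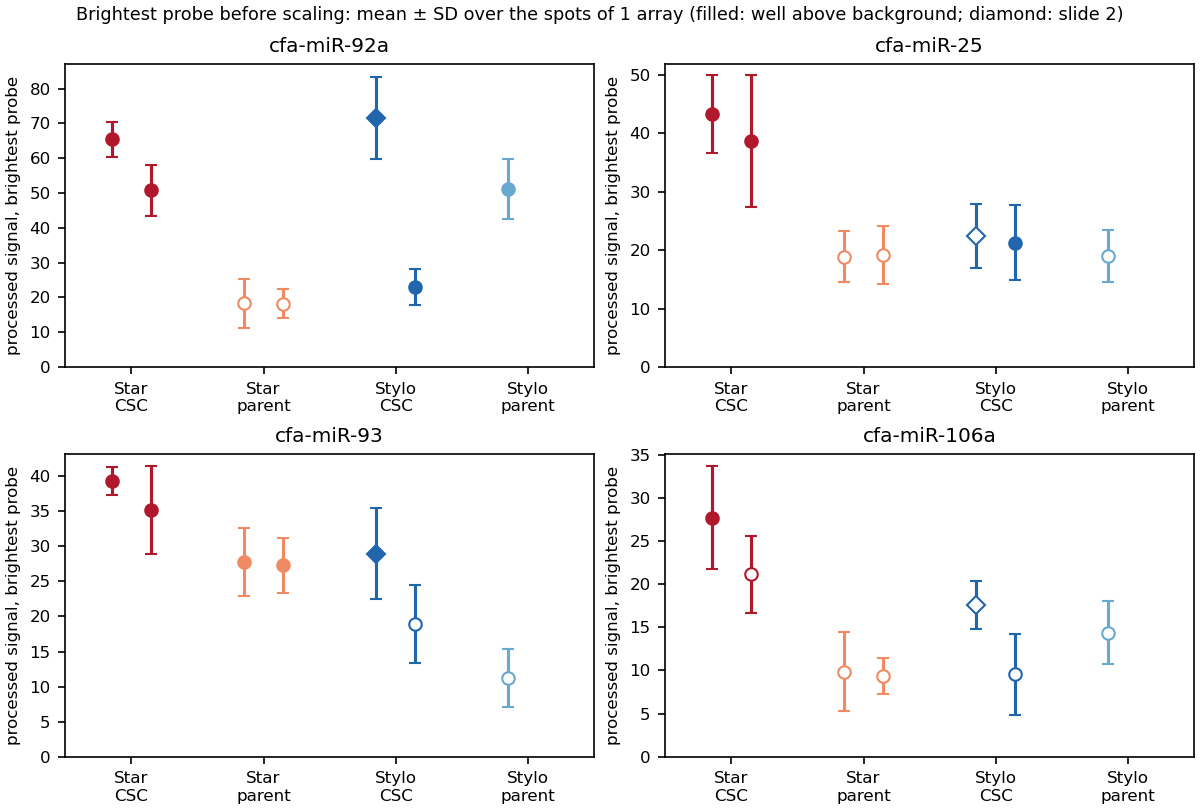
Processed signal before scaling (y axis, from 0) of the brightest probe of 4 members on each of 7 arrays by group (x axis), as the mean ± SD over the spots of an array, filled where well above background and a diamond for slide 2. For cfa-miR-92a the Star CSC arrays (65.5 and 50.7) lie above the Star parent arrays (18.3 and 18.2), and the Stylo CSC arrays (71.6 and 23.0) lie on either side of Stylo parent (51.1).

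In the resistant line, Star parent against Stylo parent, cfa-miR-92a was lower by a log2 change of −1.95 ± 0.95 (SE) over the 7 arrays, with a limma adjusted p of 0.381. Because it was not well above background in Star parent, the fold on these arrays is given as a bound, at least 3.84-fold lower in Star parent. Such a bound covers the limit of detection only, not the spread between samples or the choice of processing. On slide 1 the change was −1.85 ± 0.13 (adjusted p = 0.00995, at least 3.23-fold lower), and in the value table it was −2.04 ± 0.50 (adjusted p = 0.0366). The table's call was lost with the replicate block (adjusted p = 0.0704) and without 6 of its 8 columns, each left out in turn (0.0645 to 0.171). Over the 29 alternatives the change lay between −2.29 and −0.76, with adjusted p between 0.00263 and 0.823. Arrays at the floor have no spread, so the slide 1 errors of these dim members are too small. Haematopoietic miRNAs moved with this difference: 2 of 6, miR-155 and miR-223, passed the background rule, and only on the Stylo parent array, while the other 4 (miR-142, miR-150, miR-451 and miR-144) passed it nowhere. The summed scaled signal of the 6 was 0.172 to 0.179 in Star parent and 0.396 in Stylo parent, with 0.114 to 0.124 in Star CSC and 0.137 to 0.292 in Stylo CSC. Their part in the result was not tested, and in bulk samples fewer cells of a type and less RNA per cell cannot be told apart.

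Sorting in the resistant line, Star CSC against Star parent, gave a log2 change of cfa-miR-92a of 1.00 ± 0.78 (adjusted p = 0.534) over the 7 arrays, at least 1.999-fold higher in Star CSC. On slide 1 it rose by 1.09 ± 0.11 (adjusted p = 0.00809, at least 1.91-fold higher), and the value table gave 1.58 ± 0.50 (adjusted p = 0.0713). These arrays are the same in all 3 sets, and the scanner totals were 25.2 ± 2.59 and 19.5 ± 2.55 in Star CSC, against 5.18 ± 1.34 and 5.15 ± 1.26 in Star parent (± the software's own error). That error is technical and does not cover the spread between samples. Over the 30 alternatives the change lay between 0 and 2.10, with adjusted p between 0.00546 and 1.

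Sorting in the sensitive line gave a log2 change of cfa-miR-92a of −0.66 ± 0.95 (adjusted p = 0.703) in Stylo CSC against Stylo parent over the 7 arrays. On slide 1 the difference of 1 Stylo CSC array and 1 Stylo parent array was −1.56 on the log2 scale, and its error (SE 0.15, adjusted p = 0.0129) comes from the Star arrays alone. In the value table it fell by 2.14 (SE 0.50, adjusted p = 0.0303). That call was lost with the replicate block (adjusted p = 0.0676) and without 6 of the 8 columns, each left out in turn (0.0641 to 0.154). Without Stylo CSC replicate 2, which leaves the slide 2 array for Stylo CSC, the change was 0.44. The value table holds cfa-miR-92a as not detected in the Stylo CSC replicate 1 column, where the scanner file has a total of 25.7 ± 2.70. For Stylo CSC replicate 2 both sources give a total of 6.51, and for Stylo parent they give 19.6 from the scanner, against 19.6 and 14.5 in the 2 columns of the table. Over the 29 alternatives the change lay between −3.16 and 0.44, and it was positive in 1 of them, the one that keeps the slide 2 array alone for Stylo CSC.

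Between sorted populations, Star CSC against Stylo CSC, cfa-miR-92a had a log2 change of −0.29 ± 0.78 (adjusted p = 0.886) over the 7 arrays. It was higher in Star CSC on slide 1, by 0.80 ± 0.13 (adjusted p = 0.0332), and by 1.68 ± 0.50 in the value table (adjusted p = 0.0805). Without Stylo CSC replicate 2 it was −1.38, so each Stylo CSC array alone gives the opposite sign. The array left there is alone on slide 2, so slide and group cannot be told apart.

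The change with sorting in Star minus that in Stylo, the interaction of line and sorting, was 1.66 ± 1.23 for cfa-miR-92a over the 7 arrays (adjusted p = 0.480). It was 2.65 ± 0.19 on slide 1 (adjusted p = 0.00753), where the Stylo side is 1 array against 1, and 3.72 ± 0.71 in the value table (adjusted p = 0.0138). In the table the adjusted p was 0.0369 with the replicate block, and the call was lost without Star CSC replicate 2 (0.0574) or Stylo parent replicate 1 (0.0656). It lay between 0.26 and 4.74 over the 28 alternatives, with adjusted p between 0.00287 and 0.863. Its sign was the same in all of them, while its call was not.

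**Figure D3:**
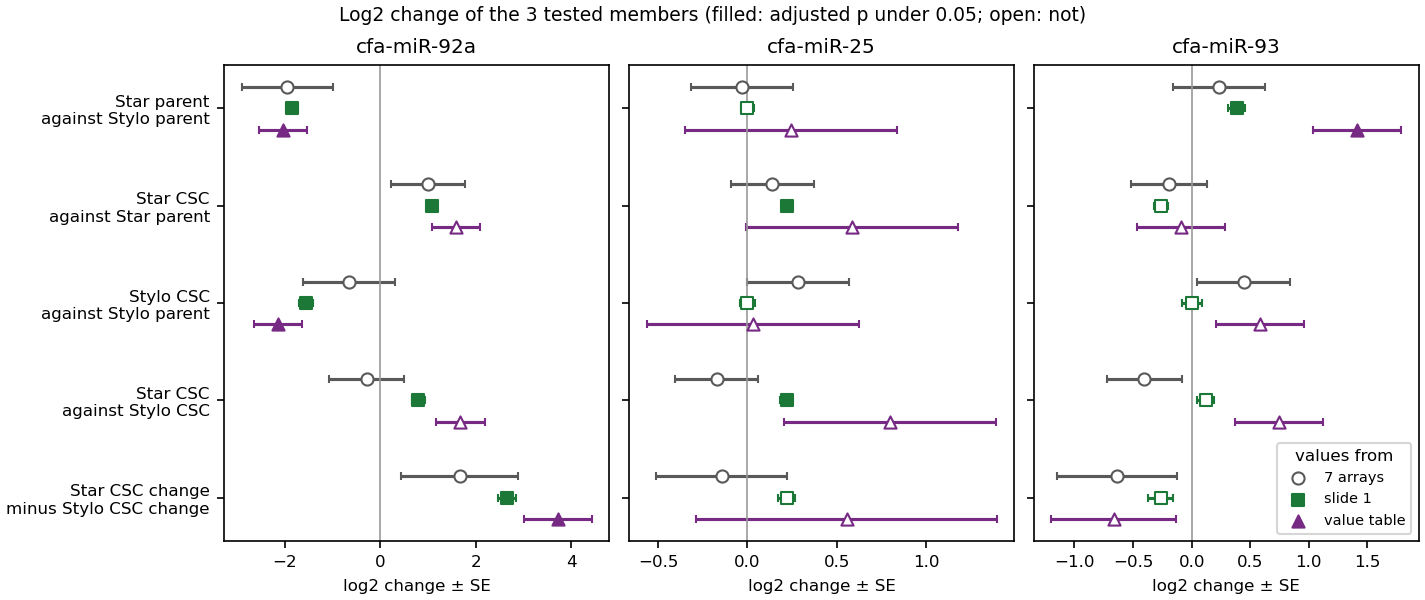
Log2 change ± SE (x axis, a separate scale in each panel) of the 3 tested members in 5 comparisons (rows), from the 7 arrays, slide 1 and the value table, filled where the adjusted p was under 0.05. All points from the 7 arrays are open, and cfa-miR-92a runs from −2.14 to 3.72 over the comparisons and sets.

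Cfa-miR-92b, which shares its seed with miR-92a and is known for its expression in neural progenitors and several tumours, was well above background on no array (0 of 7). Its 4 probes each gave 6.67 to 21.4 before scaling, and their sum was 0.116 and 0.0888 scaled in Star CSC, against 0.152 and 0.159 in Star parent. In Stylo CSC it was 0.145 and 0.188, against 0.294 in Stylo parent. The Star CSC arrays were the lowest and the Stylo parent array the highest, but these are sums of 4 probes near background and were not tested. At most 5 of 10 spots of any probe carried the flag, on the array of Stylo parent. The software's totals were 6.54 and not detected in Star CSC, against 2.28 and 1.88 in Star parent, and not detected and 4.43 in Stylo CSC, against 5.61 in Stylo parent. In these totals Star CSC replicate 1 was the highest array, so the order of arrays differs between the 2 summaries. The value table tested it and gave log2 changes of −0.67 to 0.50 in the 5 comparisons, with adjusted p of 0.495 to 0.980.

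Cfa-miR-25, the miR-92 seed member of the miR-106b-25 cluster, is known in other mammals to lower the pro-apoptotic BIM and the cell cycle inhibitor p57. Its scaled signal was 0.0914 and 0.0894 on the Star CSC arrays, both well above background, against 0.0541 and 0.0620 on the Star parent arrays, neither of them so. In Stylo CSC it was 0.127 on slide 2, not well above background, and 0.0716 on slide 1, well above background but below the floor, against 0.0838 in Stylo parent. Its brightest probe gave 43.3 and 38.7 in Star CSC, against 18.9 and 19.2 in Star parent, and 22.4 and 21.3 in Stylo CSC, against 19.03 in Stylo parent. Before scaling the Star CSC arrays thus stood above all others, which lay within 18.9 and 22.4. The Star CSC arrays also had the highest 75th percentiles, 500 and 452 signal units, against 212 to 333 on the other arrays. After scaling the slide 2 array was the highest. The order of group means on the log2 scale was Stylo CSC (−3.29 ± 0.44), Star CSC (−3.47 ± 0.02), Stylo parent (−3.58, n = 1) and Star parent (at the floor; SD, n = 2 each), and of the neighbouring pairs compared none passed the test (Star CSC and Stylo parent were not compared).

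Over the 7 arrays the log2 change of cfa-miR-25 was 0.14 ± 0.23 (adjusted p = 0.768, at least 1.096-fold higher) in Star CSC against Star parent. On slide 1 it rose by 0.22 ± 0.03 (adjusted p = 0.0145, at least 1.04-fold), and in the value table the change was 0.58 ± 0.59 (adjusted p = 0.592). In Star CSC against Stylo CSC it was −0.17 ± 0.23 (adjusted p = 0.789) over the 7 arrays, with a rise of 0.22 ± 0.04 on slide 1 (adjusted p = 0.0332) and 0.80 ± 0.59 in the value table (adjusted p = 0.431). With the slide 2 array alone for Stylo CSC the same change was −0.48, and there slide and group cannot be told apart. Between parents, Star parent against Stylo parent, it was −0.03 ± 0.28 (adjusted p = 0.987) over the 7 arrays and 0.24 ± 0.59 in the value table (adjusted p = 0.871). For Stylo CSC against Stylo parent it was 0.28 ± 0.28 (adjusted p = 0.609) and 0.03 ± 0.59 (adjusted p = 1) in the same sources. Both slide 1 values were 0, since Star parent, Stylo CSC and Stylo parent all lay at the floor there. The slide 1 rises of Star CSC are therefore its distance from the floor, with an error from the Star CSC pair and limma's pooling. The interaction was −0.14 ± 0.37 over the 7 arrays (adjusted p = 0.830), 0.22 ± 0.05 on slide 1 (adjusted p = 0.0603) and 0.55 ± 0.84 in the value table (adjusted p = 0.743).

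Cfa-miR-20a, the miR-17 seed member of the miR-17-92 transcript that is known to act on E2F1 messages, was well above background on no array (0 of 7) and at the floor on all of them. Its scaled signals were 0.0430 and 0.0374 in Star CSC, against 0.0273 and 0.0263 in Star parent, and 0.0788 and 0.0237 in Stylo CSC, against 0.0622 in Stylo parent. The brighter of its 2 probes gave 15.8 and 14.0 in Star CSC, against 6.73 and 5.08 in Star parent, and 12.4 and 7.03 in Stylo CSC, against 10.7 in Stylo parent. The software detected it on 1 array, Star CSC replicate 1, with a total of 4.47 ± 1.27. It entered no test in any of the 3 sets.

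Cfa-miR-93, the miR-17 seed member encoded beside miR-25, is known to act on the cell cycle inhibitor p21 in other mammals. Its scaled signal was 0.0850 and 0.0837 in Star CSC, against 0.0977 and 0.0953 in Star parent, well above background on all 4 arrays. In Stylo CSC it was 0.152 on slide 2, well above background, and 0.0649 on slide 1, not so, against 0.0502 in Stylo parent, not so. The Star arrays lay within 0.0837 and 0.0977, and the Stylo arrays ran from below to above them. Its brightest probe gave 39.3 and 35.2 in Star CSC, against 27.8 and 27.3 in Star parent, and 29.0 and 18.9 in Stylo CSC, against 11.2 in Stylo parent. Spots well above background numbered 18 of 20 and 18 of 19 on the Star parent arrays, against 0 of 20 in Stylo parent. Before scaling the Star CSC arrays were thus above the Star parent arrays and after scaling below them. Group means on the log2 scale ran in the order Stylo CSC (−3.16 ± 0.63), Star parent (−3.37 ± 0.03), Star CSC (−3.57 ± 0.01; SD, n = 2 each) and Stylo parent (at the floor, n = 1). The difference of Star parent and Star CSC did not pass the test over the 7 arrays, and the other neighbouring pairs were not compared.

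In Star parent against Stylo parent the log2 change of cfa-miR-93 was 0.23 ± 0.39 (adjusted p = 0.843) over the 7 arrays, where the rule for a bound gives no fold. On slide 1 the change was 0.38, where the rule gives no fold either and the 1 Stylo parent array lay at the floor. In the value table it rose by 1.41 ± 0.38 (adjusted p = 0.0430, at least 1.65-fold higher). The table's call was lost with the replicate block (adjusted p = 0.0674) and without 6 of its 8 columns, each left out in turn (0.0958 to 0.170). The totals behind the table value were 7.86 and 7.71 in Star parent, against not detected in both Stylo parent columns. Over the 29 alternatives the change lay between −0.28 and 1.79, with adjusted p between 7.1e-05 and 1. The other changes did not pass in any of the 3 sets. They were −0.19 ± 0.32 (adjusted p = 0.768) in Star CSC against Star parent, 0.44 ± 0.39 (adjusted p = 0.604) in Stylo CSC against Stylo parent, −0.40 ± 0.32 (adjusted p = 0.671) in Star CSC against Stylo CSC and −0.64 ± 0.51 (adjusted p = 0.513) for the interaction, all over the 7 arrays. On slide 1 the first of them was −0.26 ± 0.06, with an adjusted p of 0.0503. Leaving out Stylo CSC replicate 2 gave a change of −0.85 in Star CSC against Stylo CSC. That leaves the slide 2 array alone for Stylo CSC, so slide and group cannot be told apart.

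Cfa-miR-106a, the miR-17 seed member of the miR-106a-363 cluster, was well above background only on the array of Star CSC replicate 1. There 11 of 13 spots of its brightest probe passed and gave 27.7, against 21.2 with 1 of 12 spots on the array of Star CSC replicate 2. The same probe gave 9.84 and 9.34 in Star parent, 17.6 and 9.56 in Stylo CSC and 14.4 in Stylo parent. Both Star CSC arrays, which had the highest 75th percentiles, were thus above all others before scaling. The scaled signals were 0.0568 and 0.0343 in Star CSC, against 0.0226 and 0.0197 in Star parent, and 0.103 and 0.0275 in Stylo CSC, against 0.0447 in Stylo parent, so that only the slide 2 array exceeded the floor. It was tested in the value table alone, where log2 changes ran from −0.12 to 0.22 with adjusted p of 0.520 to 0.620. The floor limits these changes, since Star CSC replicate 2 and both Star parent columns lay at it. The totals were 5.09 and 3.89 in Star CSC, against not detected in Star parent (at least 1.52-fold higher in Star CSC). In Stylo parent they were 2.64 and not detected, at least 1.54-fold higher than in Star parent. In Stylo CSC both were not detected.

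**Figure D4:**
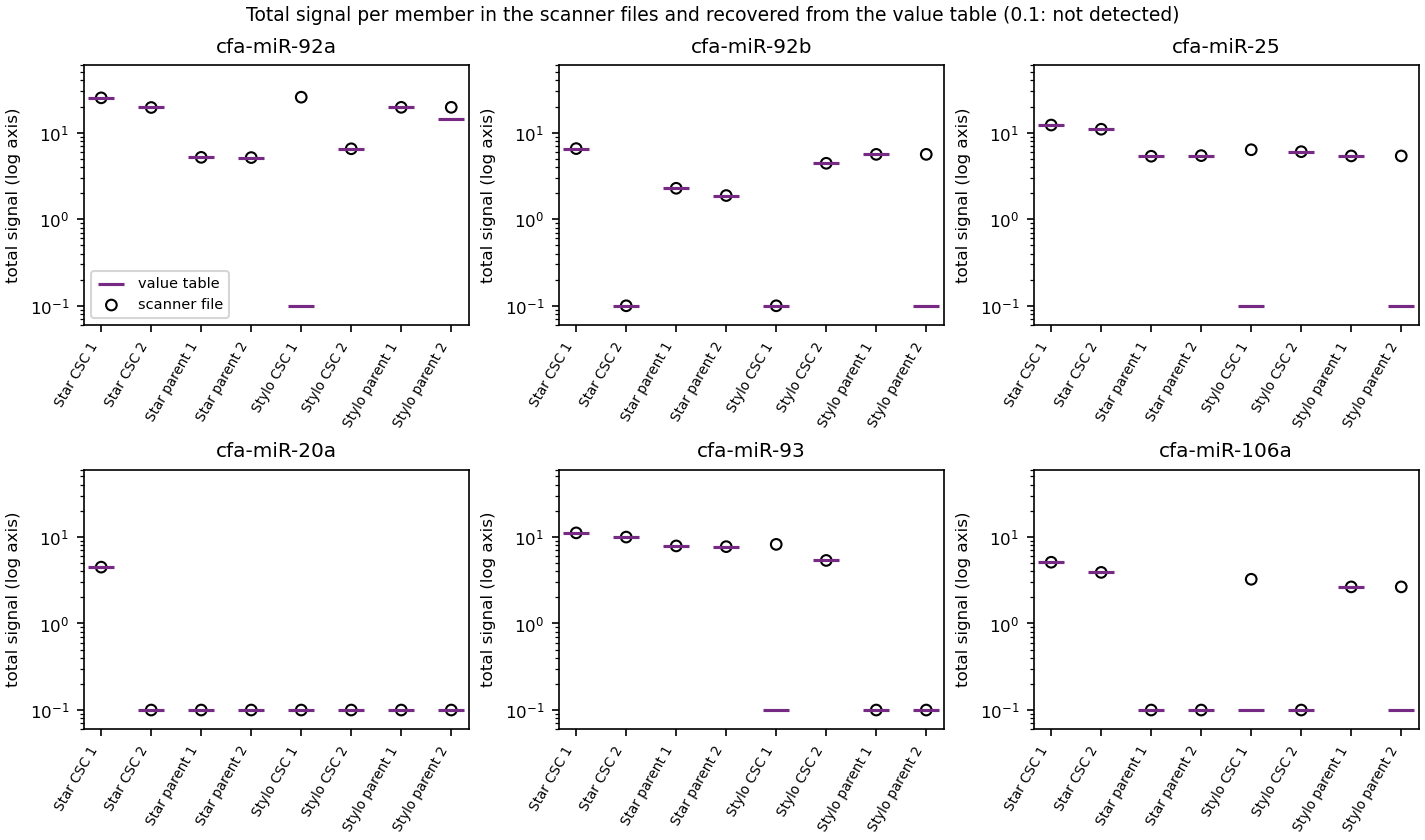
Total signal (y axis, logarithmic) of each member for the 8 samples (x axis), with circles for the scanner files and bars for totals recovered from the value table, and 0.1 where not detected. The circle of Stylo parent 2 repeats that of Stylo parent 1 because their scanner values were identical, and in the Stylo CSC 1 column of the table all 6 members stand at 0.1.

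Counted as a list, 0 of the 3 tested members passed an adjusted p of 0.05 in any of the 5 comparisons over the 7 arrays, and 0 had an unadjusted p under 0.05. The share of all 46 tested miRNAs that passed there was 2.17% in Star parent against Stylo parent, 2.17% in Star CSC against Star parent, 2.17% in Stylo CSC against Stylo parent, 6.52% in Star CSC against Stylo CSC and 0% for the interaction. The median log2 change of the members was −0.03 between parents, beside −0.25 over all tested miRNAs, and 0.14 in Star CSC against Star parent, beside 0. It was 0.28 in Stylo CSC against Stylo parent, beside −0.25, then −0.29 in Star CSC against Stylo CSC, beside 0.05, and −0.14 for the interaction, beside 0.38.

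On slide 1 between 34% and 52% of the 50 tested miRNAs passed, which is the level against which the members' calls are read. In Star parent against Stylo parent 1 member was higher (cfa-miR-93) and 1 lower (cfa-miR-92a) of 3, beside 40% of all. Star CSC against Star parent had 2 higher, cfa-miR-92a and cfa-miR-25, beside 52%. Stylo CSC against Stylo parent had 1 lower, cfa-miR-92a, beside 34%. Star CSC against Stylo CSC had 2 higher, cfa-miR-92a and cfa-miR-25, beside 46%, and the interaction had 1, cfa-miR-92a, beside 40%. The counts of 3 members are read no further beside shares of that size.

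From the value table, 5 members were among 56 tested. Between parents cfa-miR-93 was higher and cfa-miR-92a lower, 2 of 5 beside 32.1% of all tested. Stylo CSC against Stylo parent had 1 lower, cfa-miR-92a, beside 30.4%, and the interaction had 1, cfa-miR-92a, beside 33.9%. No member passed in Star CSC against Star parent (0 of 5, beside 35.7%) or in Star CSC against Stylo CSC (0 of 5, beside 19.6%), with 1 member each at an unadjusted p under 0.05.

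Ratios of members on the same array do not depend on the scaling between arrays. They compare probes of different efficiency, so their levels are not read, and they were not tested. The log2 ratio of the brightest probes of cfa-miR-93 and cfa-miR-25, which are neighbours in 1 host gene, was −0.14 and −0.14 in Star CSC, against 0.56 and 0.51 in Star parent. In Stylo CSC it was 0.37 and −0.17, against −0.76 in Stylo parent. Both were well above background in Star CSC alone. On every other array at least 1 of the 2 probes was not, so the values there are ratios to a dim signal and give no order of groups. The ratio of cfa-miR-92a to cfa-miR-25 was 0.60 and 0.39 in Star CSC, against −0.04 and −0.07 in Star parent, and 1.67 and 0.11 in Stylo CSC, against 1.42 in Stylo parent. For cfa-miR-92a over cfa-miR-93 it was 0.74 and 0.53 in Star CSC, against −0.60 and −0.58 in Star parent, and 1.30 and 0.28 in Stylo CSC, against 2.18 in Stylo parent. In Star parent neither cfa-miR-92a nor cfa-miR-25 was well above background, and in Stylo parent neither cfa-miR-25 nor cfa-miR-93 was. The ratios of these groups are therefore given as signals only and are not ranked.

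**Figure D5:**
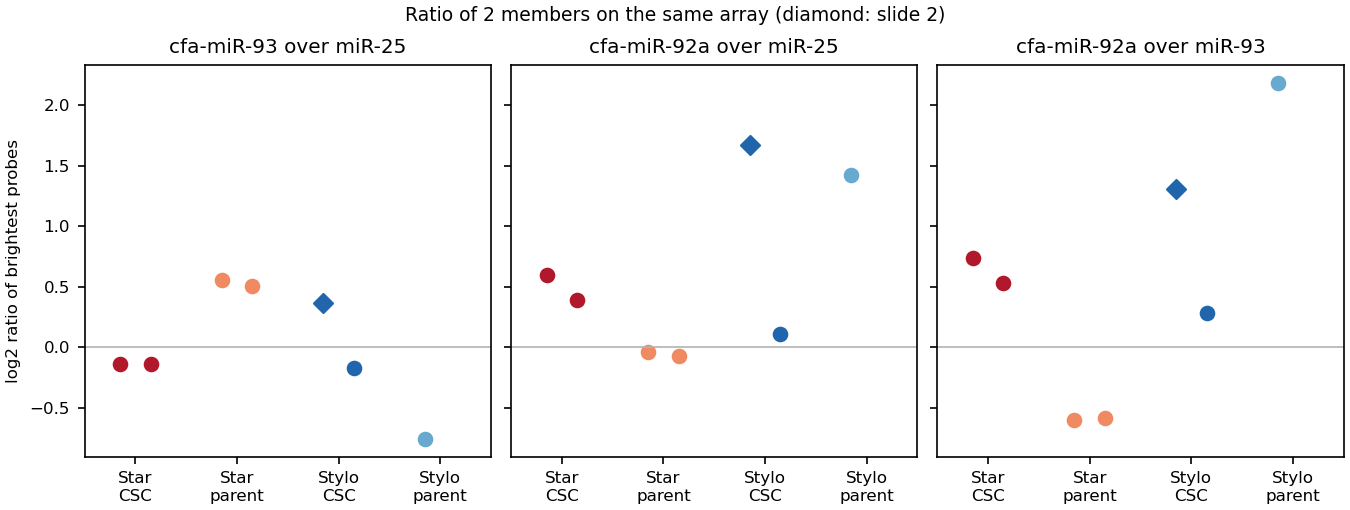
Log2 ratio of the brightest probes of 2 members on the same array (y axis) by group (x axis) for 3 pairs, with a diamond for slide 2. Both probes of each pair were well above background on the Star CSC arrays, where cfa-miR-93 over cfa-miR-25 was −0.14 and −0.14, while Star parent and Stylo parent have a dim probe in every pair.

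The other miRNAs listed for the 3 clusters and the same seeds were not well above background. The seed list holds miRNAs known in other mammals, and seeds were not checked against canine sequences. All 10 (miR-17, miR-18a, miR-18b, miR-19a, miR-19b, miR-20b, miR-106b, miR-363, miR-32 and miR-367) have probes on the array, 0 passed the background rule, and the software detected 0 of them on any array. The brightest probe of miR-106b, the third miRNA of the cluster that holds miR-93 and miR-25, gave 2.04 to 8.88 before scaling, and 0 of its spots were well above background on any array. Those of the other 9 lay between −4.08 and 2.42 after background subtraction. Of the miRNAs encoded in the miR-17-92 transcript, cfa-miR-92a alone was well above background on any array. Probe efficiency differs between miRNAs, and a dim probe does not show that a miRNA is absent.

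The miRNAs whose levels ran most like those of cfa-miR-92a over the 7 arrays were miR-15b, miR-8904b and miR-21, with mean absolute differences of 0.409, 0.499 and 0.508 log2 units after centring each on its own mean. The median over the 43 other tested miRNAs was 0.844. Log2 scaled signals of miR-15b were −1.31 and −1.29 in Star CSC, against −2.003 and −2.05 in Star parent, and −1.11 and −1.74 in Stylo CSC, against −0.77 in Stylo parent. It thus had Star parent lowest and Stylo parent highest, as cfa-miR-92a did among group means. MiR-8904b did not follow this order: it was −0.56 and −0.54 in Star CSC, against −0.61 and −0.44 in Star parent. Its highest value was on the slide 2 array (1.19). MiR-21 had Star parent lowest (−1.95 and −2.03) and the slide 2 array highest (−1.06). For cfa-miR-93 the closest were miR-23a (0.168), miR-8815 (0.173) and miR-107 (0.211), against a median of 0.375. A miRNA at the floor on every array, as miR-107 was, has the distance 0.211 from cfa-miR-93, so this likeness reflects the small span of cfa-miR-93. All arrays share their scaling, and these values are descriptions over 7 arrays.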

How the data were processed

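Total RNA, 100 ng a sample, was labelled with Cy3 and hybridised to 1-colour miRNA arrays, per the labels' protocols. The authors deposited scanner files of spot intensity from Agilent Feature Extraction 11.5.1.1, per the file headers, with background-subtracted signals, flags and a total per miRNA. They also deposited a value table on a log2 scale, whose normalization the labels do not state. Set against the scanner files, its differences between columns equalled those of log2 totals after 1 shift per array, each miRNA being centred on its median over arrays (tolerance 0.01 for the rows said to follow). The direction is thus known and the reason for the shifts is not. The median of a column was −0.941 and −0.635 for Star CSC, 0.0127 and −0.116 for Star parent, 6.15 and −0.0127 for Stylo CSC, and 0.293 and 6.15 for Stylo parent. The authors' table was turned back into totals, scaled and tested like the scanner files.

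Outlier and control spots were left out, spots of a probe were averaged and the probes of a miRNA were summed. Each array was divided by its 75th percentile over 22 probes that every array measured well above background (219 to 500 signal units on slide 1 and 212 on slide 2). A floor of log2 −3.61 was set, −2.99 on slide 1 and −4.89 for the value table. The comparisons used limma 3.58.1 (R 4.3.3) and 1 fit of 4 group means over all tested miRNAs (46, 50 and 56 in the 3 sets, with 3, 2 and 4 residual degrees of freedom before moderation). The test was two-sided, with Benjamini-Hochberg adjustment within a comparison. A bound ("at least N-fold") sets the brighter group's mean against a mean over the dimmer group's arrays. Each of these arrays enters with its own signal or with its lowest signal of any miRNA well above background, whichever is higher, and no fold is given where it is under 1. A bound covers neither the spread between samples nor the choice of processing, and the number of arrays limits the precision.

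The scanner files hold no mean spot signal, so the normexp alternative used the median signal. The fit was tested on simulated data. Members, lists and sets were chosen with earlier results of these data known. Named miRNAs were all members and any listed cluster or seed relative well above background. For members well above background on at least 5 arrays, the 3 closest tested miRNAs were named too. Replicate numbers are not said to pair samples: deviations of same-numbered arrays from their group means correlated at −0.364 to −0.030 over the 7 arrays and at −0.577 to 0.475 in the value table. Mature sequences were not used here. Alternatives covered scaling, background correction, summary, floor, filter, slide, replicate block, groups in the fit, source and leaving out each array.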

Additional observations from a re-analysis of the deposited data

Results flagged for a closer look

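The change of cfa-miR-92a with sorting differed between the lines by the interaction test of limma in both sets that do not use the scanner file of Stylo CSC replicate 1. Star CSC against Star parent minus Stylo CSC against Stylo parent was 2.65 ± 0.19 (SE, log2) on slide 1 with an adjusted p of 0.00753, and 3.72 ± 0.71 in the value table with an adjusted p of 0.0138. The slide 1 value sets 2 Star CSC and 2 Star parent arrays against 1 Stylo CSC and 1 Stylo parent array, and both Star parent arrays lay at the floor. Its error therefore comes from the Star CSC pair and limma's pooling over miRNAs, and the Stylo side has no spread of its own. The value table holds cfa-miR-92a as not detected in the Stylo CSC replicate 1 column, while the scanner file has a total of 25.7 ± 2.70 (the software's own error). The table's call was lost without Star CSC replicate 2 or Stylo parent replicate 1. Of all tested miRNAs, 40% on slide 1 and 33.9% in the value table passed the same interaction test. Both sets hold the same Star samples, so they are not independent of each other. Over the 7 arrays the interaction was 1.66 ± 1.23 with an adjusted p of 0.480.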

How the results depend on the processing

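Over the 7 arrays 0 members passed in each comparison. Counts under alternatives are given below for Star parent against Stylo parent first, then for Star CSC and Stylo CSC each against its parent, then between the sorted groups and last for the interaction. With slide as a term, which sets the only slide 2 array aside, 2, 3, 1, 2 and 3 of 3 members passed. In the first comparison 32 of all 46 tested miRNAs passed beside them. With only the groups compared 2 and 3 passed in the first and second, beside 28 of all 46 in the first. Beside such shares these counts are read no further. The value table gave 2, 0, 1, 0 and 1 of 5 members, or 2, 1, 1, 4 and 1 where it was not scaled. Unscaled, 17 of all 56 tested miRNAs passed in the first comparison. Without scaling of the 7 arrays 1 passed in the second and 1 in the fourth. Leaving out an array in turn gave 0 to 2, 0 to 3, 0 to 2, 0 to 3 and 0 to 2 members. The highest counts came without Stylo CSC replicate 2, where most of all tested miRNAs passed in the first comparison. In the first comparison 2 passed without Stylo CSC replicate 1 as well. Leaving out a column of the value table gave counts within these ranges. The replicate block gave 0 members in every comparison over the 7 arrays, and on the value table it gave 1 in the interaction, cfa-miR-92a. The remaining alternatives left every count at 0. Of 438 member values under alternatives, 292 kept their direction and side of the threshold and 58 kept their direction and passed in addition. The other 88 turned sign, whether or not they passed, and some of them did pass.

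For cfa-miR-92a, Star CSC against Stylo CSC turned to 0.56 with the percentile over all probes, 0.61 without scaling, 0.81 with slide as a term, 1.68 in the value table (1.68 with the replicate block) and 2.26 there without scaling. Leaving out Stylo CSC replicate 2 gave −1.38 from the arrays and 2.70 from the table. For Stylo CSC against Stylo parent it gave 0.44 and −3.16.

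For cfa-miR-25, Star CSC against Stylo CSC turned to 0.75 with the percentile over all probes, 0.71 without scaling, 0.14 with slide as a term, 0.80 in the value table (0.80 with the replicate block) and 1.37 there without scaling. It was −0.48 without Stylo CSC replicate 2 from the arrays and 1.77 from the table. Its interaction turned to 1.07 with the percentile over all probes, 0.71 without scaling, 0.13 with normexp, 0.094 with scanner totals, 0.46 with a lower floor, 0.17 with slide as a term, 0.55 in the value table (0.55 with the replicate block), 0.44 with the brightest probe and 1.02 in the unscaled table. That interaction was −0.46 without Stylo CSC replicate 2 from the arrays and 1.37 from the table. Star parent against Stylo parent turned to 0.24 in the value table (0.24 with the replicate block) and 0.35 there without scaling. It ranged from −0.36 to 1.18 when a column of the table was left out, both ends from a Stylo parent column. Stylo CSC against Stylo parent turned to −0.32 with the percentile over all probes, −0.13 with normexp and −0.029 with slide as a term. It ranged from −0.87 to 0.82 when a column was left out, again both from Stylo parent.

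For cfa-miR-93, Star CSC against Stylo CSC turned to 0.57 with the percentile over all probes, 0.48 without scaling, 0.038 with slide as a term, 0.75 in the value table (0.75 with the replicate block) and 1.32 there without scaling. It was −0.85 without Stylo CSC replicate 2 from the arrays and 1.63 from the table. Star CSC against Star parent turned to 0.61 with the percentile over all probes, 0.36 without scaling, 0.19 with the brightest probe and 0.43 in the unscaled table. Star parent against Stylo parent was −0.28, and Stylo CSC against Stylo parent −0.064, with normexp. The interaction turned to 0.49 with the percentile over all probes, 0.20 without scaling, 0.043 with normexp and 0.088 in the unscaled table.

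The percentile over all probes moved the median change of all tested miRNAs to −0.71, 0.76, −0.75, 0.75 and 1.49 in the 5 comparisons. Without scaling it was 0.17, 0.53, −0.0077, 0.79 and 0.60. The 2 array sets hold 2 arrays or fewer a group, and signals near background limit all members. The brightest probe, the unscaled table and leaving out its columns were chosen after seeing the data. The causes of these differences were not tested.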
